A study of Mus musculus with 18 samples.

Results

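The genes described here are 10 markers of resident Kupffer cells, chosen by name from a table of 16245 genes: Clec4f, Timd4, Vsig4, Marco, Cd163, Cd5l, Folr2, C1qa, C1qb and C1qc. All 10 were in the table, and all 10 passed the filter of the test on low counts in every comparison. They were measured by RNA sequencing of whole liver from 18 wild-type (WT) male C57BL/6 mice (C57BL/6J in the methods of the study), 6 per group, that were single-housed at 29 °C and fed a NASH diet, a western style diet high in fat and fructose that leads to fatty liver with inflammation and fibrosis, from 8 weeks of age. The vehicle-treated mice were injected without drug, the GDF15-treated mice received recombinant GDF15 under the skin once a day, and the pair-fed mice were given only the amount of food that the GDF15-treated mice had eaten on the day before. The labels name doses of 0.3, 1 and 5 nmol/kg without saying which of them these livers received. GDF15 is a hormone of cell stress that acts on the hindbrain to reduce appetite, and the pair-fed group asks which differences from vehicle are also found when only food intake is matched.

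Kupffer cells are the resident macrophages of the liver. They sit inside the sinusoids, where they clear bacteria, immune complexes, old erythrocytes and dying cells from the blood, and they are seeded before birth and renew themselves in place. In steatohepatitis part of this population can be lost and replaced by recruited monocytes, some of which pass through a lipid-associated state. Clec4f, a lectin that binds galactose, is found almost only on mouse Kupffer cells, whether they are embryonic or derived from monocytes, whereas Timd4, a receptor for phosphatidylserine on dying cells, is gained late and marks long-settled cells. Vsig4 is a complement receptor for C3 fragments, Marco a scavenger receptor for bacteria and particles, Cd163 the scavenger receptor for haemoglobin bound to haptoglobin, Cd5l a secreted protein that protects macrophages from apoptosis, and Folr2 a folate receptor. C1qa, C1qb and C1qc encode the chains of C1q, the recognition molecule of the classical complement pathway, which macrophages in general produce.

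Total counts per library ranged from 18059478 to 23215915 for vehicle, from 17180057 to 35301853 for pair-fed and from 16508864 to 25001486 for GDF15. In the pair-fed group replicates 1 to 3 held at most 17926397 counts and replicates 4 to 6 at least 25047723, so comparisons with this group were also made with each of these sets alone. GDF15 replicate 4 stood apart in acute-phase genes, a feature noticed after the values were seen. Its Hp (haptoglobin) level was 172077 normalized counts, whereas the other 5 GDF15-treated livers held 46337 to 82530. Vehicle replicate 2 had the lowest level of the group for Clec4f, Timd4, Vsig4, Marco and Cd163, and values without it are given below for Vsig4, Cd163, Timd4 and the ratio of Timd4 to Clec4f. Hepatocyte genes moved the other way from most myeloid genes: 5 of 6 rose with GDF15 compared with vehicle, against 15.8% of all genes. Their summed level was 2035400 to 2381110 normalized counts in GDF15-treated livers and 1447020 to 1863340 in vehicle-treated livers. The part of this shift in the results below was not tested.

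Per length of transcript, the C1q chains and Cd5l were the most abundant members and Cd163 and Timd4 the least. In vehicle-treated livers the mean normalized count per kilobase of the longest annotated transcript was 922 ± 197 for C1qb, 877 ± 194 for C1qa, 746 ± 183 for Cd5l and 738 ± 177 for C1qc (SD, n = 6). Neighbours within these 4 differed by less than 1 SD. Clec4f followed at 434 ± 99.7, Vsig4 at 196 ± 87.6 and Folr2 at 81.5 ± 21.1, each lower than the gene above it by more than 1 SD of either. Marco at 36.4 ± 48.3, Timd4 at 12.2 ± 9.0 and Cd163 at 9.20 ± 7.19 did not differ from each other beyond their spread. In GDF15-treated livers the C1q chains and Cd5l lay between 501 and 594 per kilobase, within 1 SD of Clec4f at 482 ± 139, and Cd163 at 34.0 ± 11.3 and Timd4 at 25.1 ± 13.3 were again within their spread.

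**Figure D1:**
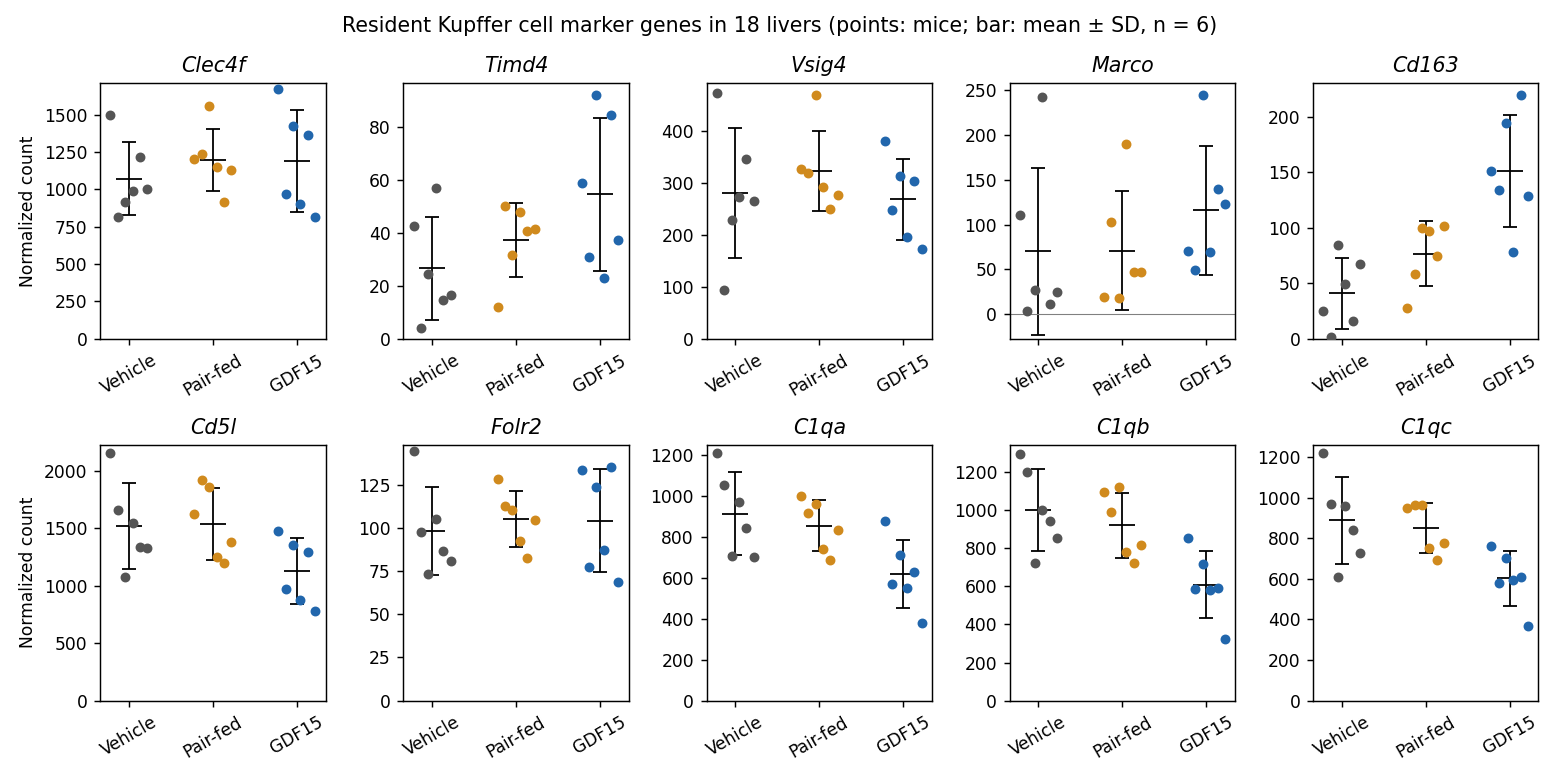
Normalized counts of each of the 10 genes (vertical axes, deposited count divided by the size factor of the library) in vehicle-treated, pair-fed and GDF15-treated mice. Points are single livers and bars the mean ± SD of 6. The C1q chains and Cd5l sit lower in the GDF15 group with overlap, Cd163 sits higher with 5 of 6 GDF15-treated livers above every vehicle-treated liver, and Timd4 and Marco spread widely in every group.

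The 10 genes did not move together with GDF15. Compared with vehicle, the 3 C1q chains and Cd5l fell, Cd163 rose, and the other 5 did not pass the test. At an adjusted p under 0.05 in DESeq2, 4 of 10 members were lower, against 17.5% of all genes tested, and 1 of 10 was higher, against 15.8%. With the additional threshold of an absolute log2 fold change above 1, which the study used, 0 of 10 were lower, against 5.37% of all genes, and Cd163 remained as the 1 higher, against 0.9%. The 0 lower members were 0 in edgeR too, with 4 at an unadjusted p under 0.05. The median log2 fold change of the 10 was 0.01, and that of all genes was 0.00. In whole liver, fewer cells of a type and less RNA per cell cannot be told apart.

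Compared with pair-fed mice, the same 4 genes were lower and none was higher. The 4 of 10 lower members stood against 13.8% of all genes, and 0 of 10 passed the fold threshold too, against 2.75%. The 0 higher members in DESeq2 stood against 13.3%, or 0.627% with the fold threshold, with 0 also in edgeR and 0 at an unadjusted p under 0.05. The median log2 fold change of the 10 was −0.13, and that of all genes −0.00. The comparisons with vehicle and with pair-fed mice share the GDF15-treated livers, so their values are given side by side and are not independent. Pair-fed compared with vehicle gave 0 members lower and 0 higher in DESeq2 and in edgeR, 0 at an unadjusted p under 0.05, and 0% of all genes in either direction. In no comparison did a member separate all 6 livers of a group from all 6 of another, a count of 0 of 10. Of 13207 expressed genes 7.52% did so downward and 6.37% upward for GDF15 compared with vehicle, 5.6% and 5.29% for GDF15 compared with pair-fed mice, and 0.106% and 0.121% for pair-fed compared with vehicle.

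**Figure D2:**
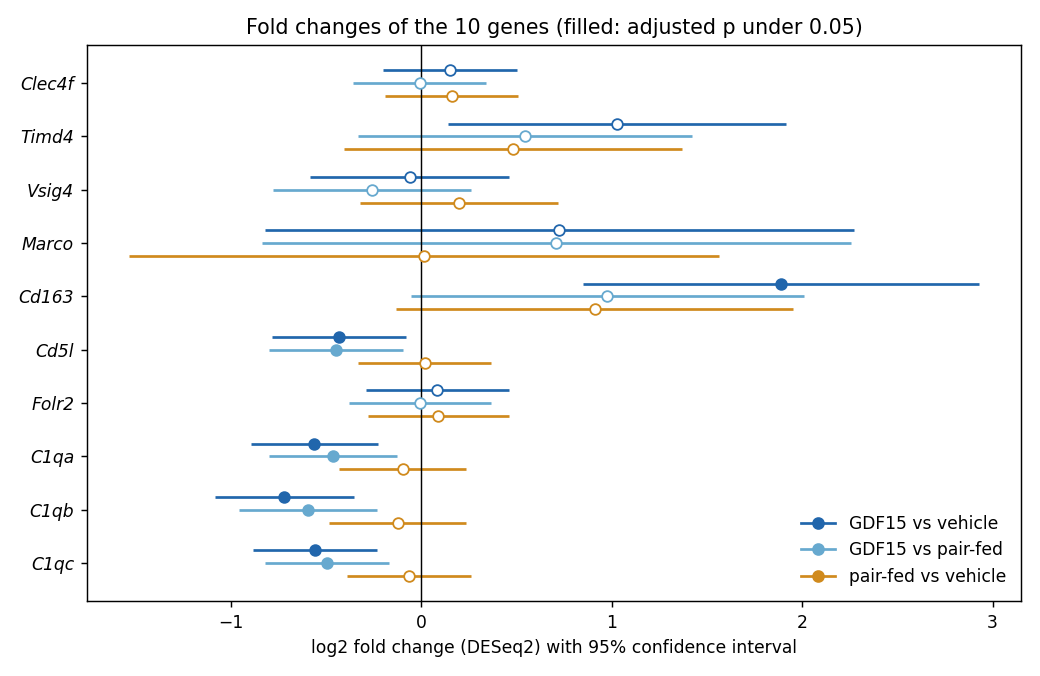
DESeq2 log2 fold changes (horizontal axis, bars are 95% confidence intervals) of the 10 genes in 3 comparisons, with filled points for an adjusted p under 0.05. C1qa, C1qb, C1qc and Cd5l lie to the left of 0 in both GDF15 comparisons, Cd163 lies at 1.89 compared with vehicle, and no pair-fed point is filled.

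The C1q genes lie next to each other on chromosome 4 of the mouse genome (GRCm38): C1qb at 136880126 to 136886200, C1qc at 136889801 to 136892936 and C1qa at 136895916 to 136898844. C1qb, which gave the largest fall among the 10 members compared with vehicle, held 722 to 1296 normalized counts in vehicle-treated livers (median 972), 722 to 1123 in pair-fed livers (median 903) and 325 to 855 in GDF15-treated livers (median 588). Replicate 6 was the lowest GDF15-treated liver, and replicate 1 was the only one that reached into the range of either control group. C1qb fell by 0.72 ± 0.19 on the log2 scale compared with vehicle (SE, DESeq2 adjusted p = 0.000801) and by 0.59 ± 0.19 compared with pair-fed mice (adjusted p = 0.00793).

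C1qa held 698 to 1207 normalized counts in vehicle-treated livers (median 906), 684 to 997 in pair-fed livers (median 873) and 379.7 to 878 in GDF15-treated livers (median 596). Of the 6 GDF15-treated livers, 4 lay below every vehicle-treated liver and 4 below every pair-fed liver. C1qa fell by 0.56 ± 0.17 on the log2 scale compared with vehicle (DESeq2 adjusted p = 0.00533) and by 0.46 ± 0.17 compared with pair-fed mice (adjusted p = 0.0285). The latter call was lost when GDF15 replicate 2, 4 or 6 or pair-fed replicate 1, 2 or 3 was left out, with DESeq2 adjusted p between 0.0587 and 0.0782. C1qc held 607 to 1219 normalized counts in vehicle-treated livers (median 902), 694 to 967 in pair-fed livers (median 865) and 368 to 760 in GDF15-treated livers (median 603). It fell by 0.56 ± 0.17 compared with vehicle (DESeq2 adjusted p = 0.00419) and by 0.49 ± 0.17 compared with pair-fed mice (adjusted p = 0.0149), again with overlap between the groups. With replicates 1 to 3 only, the calls of C1qa and C1qc compared with vehicle were lost, at −0.45 for both (DESeq2 adjusted p = 0.0821 and 0.104).

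The proportions of the chains varied little within groups and differed somewhat between them. The ratio of C1qa to C1qb counts had a median of 0.911 in vehicle-treated, 0.933 in pair-fed and 1.01 in GDF15-treated livers, and its coefficient of variation within groups was between 5.85% and 7.81%. The ratio of C1qc to C1qb had medians of 0.873, 0.958 and 1.01, with coefficients of variation between 5.45% and 7.81%. Its ranges overlapped, from 0.807 to 0.961 in vehicle-treated and from 0.889 to 1.13 in GDF15-treated livers, and these differences were not tested. Against the 3 larger pair-fed libraries alone, replicates 4 to 6, the falls were smaller and did not pass the test, at −0.28 for C1qa, −0.34 for C1qb and −0.30 for C1qc on the log2 scale (DESeq2 adjusted p = 0.412, 0.320 and 0.357). Against the 3 smaller ones they were −0.63, −0.81 and −0.67 (DESeq2 adjusted p = 0.0158, 0.00249 and 0.00700). Library size and replicate number coincide in the pair-fed group and cannot be told apart.

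Promoter sequence from RefSeq (GRCm38.p6) was at hand for 9 of the 10 members, in 10 windows because Folr2 has 2, each from 250 bases before to 50 after the annotated start. C1qa had no entry. Shown are the windows of C1qb (chr4:136886151-136886450, minus strand) and C1qc (chr4:136892865-136893164, minus strand), which fell together, and of Cd163 (chr6:124304401-124304700, plus strand), which rose. Capitals mark GAGGAA, the core bound by the macrophage factor PU.1, and TGCTGA, a core bound by the MAF factors of resident macrophages, on either strand (TTCCTC and TCAGCA read the other way).
C1qb: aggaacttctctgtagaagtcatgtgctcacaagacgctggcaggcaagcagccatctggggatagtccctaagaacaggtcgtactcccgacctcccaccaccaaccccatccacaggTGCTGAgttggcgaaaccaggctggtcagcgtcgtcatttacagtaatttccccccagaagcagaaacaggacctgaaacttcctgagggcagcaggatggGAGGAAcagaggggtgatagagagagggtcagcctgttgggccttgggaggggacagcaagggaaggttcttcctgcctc
C1qc: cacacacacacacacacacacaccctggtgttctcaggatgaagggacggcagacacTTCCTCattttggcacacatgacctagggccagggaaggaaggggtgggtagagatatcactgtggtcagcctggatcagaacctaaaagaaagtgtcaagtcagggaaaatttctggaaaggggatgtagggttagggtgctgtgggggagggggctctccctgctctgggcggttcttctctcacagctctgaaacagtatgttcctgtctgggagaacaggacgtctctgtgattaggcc
Cd163: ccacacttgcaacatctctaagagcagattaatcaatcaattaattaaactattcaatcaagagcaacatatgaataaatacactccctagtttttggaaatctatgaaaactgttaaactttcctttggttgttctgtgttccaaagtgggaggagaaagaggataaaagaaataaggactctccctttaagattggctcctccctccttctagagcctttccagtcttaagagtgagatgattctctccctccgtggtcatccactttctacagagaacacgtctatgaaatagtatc
The C1qb window holds GAGGAA starting 30 bases before the start and TGCTGA 131 bases before it, the C1qc window holds GAGGAA on the opposite strand 193 bases before the start, and the Cd163 window holds neither word. Over the 10 windows, GAGGAA was present in 5 (C1qb, C1qc, Cd5l, Marco and Vsig4), whereas 28.3% of all 32851 promoter windows held it. TGCTGA was present in 7 (C1qb, Cd5l, Clec4f, Timd4, Vsig4 and both of Folr2), whereas 19.5% of all windows held it. TGGGAA, the core bound by the Notch partner RBPJ, was present in 2 (Clec4f and Marco) and in 25.6% of all windows. The words were searched on both strands, they do not overlap in the windows shown, and a match is not evidence of binding.

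Cd5l followed the C1q chains with less certainty. It held 1078 to 2159 normalized counts in vehicle-treated livers (median 1443), 1198 to 1921 in pair-fed livers (median 1501) and 776 to 1478 in GDF15-treated livers (median 1135). GDF15 replicates 2, 4 and 6 lay below every vehicle-treated and pair-fed liver, and replicates 1, 3 and 5 lay among them. The log2 fold change was −0.43 ± 0.18 compared with vehicle (DESeq2 adjusted p = 0.0496, edgeR 0.0618) and −0.45 ± 0.18 compared with pair-fed mice (adjusted p = 0.0469, edgeR 0.0656). The call against vehicle was lost when vehicle replicate 1, 2, 4 or 5 or GDF15 replicate 2, 4 or 6 was left out (DESeq2 adjusted p between 0.0522 and 0.187), and that against pair-fed mice when GDF15 replicate 2, 4 or 6 or pair-fed replicate 1, 2 or 3 was left out (adjusted p between 0.0842 and 0.134). Against the 3 larger pair-fed libraries the difference was −0.18 (DESeq2 adjusted p = 0.631).

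Clec4f, the member least shared with other cells by its known expression, did not differ between the groups beyond the error. It held 814 to 1495 normalized counts in vehicle-treated livers (median 995), 914 to 1556 in pair-fed livers (median 1175) and 812 to 1668 in GDF15-treated livers (median 1167), and the ranges almost coincide. The log2 fold change compared with vehicle was 0.15 ± 0.18, with a 95% confidence interval from −0.20 to 0.50 (DESeq2 adjusted p = 0.550), and −0.01 ± 0.18 compared with pair-fed mice, with an interval from −0.36 to 0.34 (adjusted p = 0.981). With total counts as size factors, which shift the median of all expressed genes to −0.16 for GDF15 compared with vehicle, the value was −0.02, so its sign is set by the scaling.

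Folr2 and Vsig4 did not pass the test either. Folr2 held 73.3 to 144 normalized counts in vehicle-treated livers, 82.8 to 128 in pair-fed livers and 68.7 to 135 in GDF15-treated livers, and its log2 fold change compared with vehicle was 0.09 ± 0.19 (DESeq2 adjusted p = 0.771), or −0.09 with total counts as size factors. Vsig4 held 94.8 to 473 in vehicle-treated livers, 249 to 469 in pair-fed livers and 174 to 379.6 in GDF15-treated livers, and its log2 fold change was −0.06 ± 0.27 compared with vehicle, with a 95% confidence interval from −0.58 to 0.46 (adjusted p = 0.891), and −0.26 ± 0.27 compared with pair-fed mice (adjusted p = 0.502). Vehicle replicate 2 set the low end of the Vsig4 range, and without it the value compared with vehicle was −0.24 (DESeq2 adjusted p = 0.440).

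Cd163 was the member that rose. It held 2.08, 15.9, 25.3, 49.2, 67.7 and 84.95 normalized counts in the 6 vehicle-treated livers, 28.0, 58.7, 74.6, 97.3, 99.95 and 101 in the pair-fed livers and 78.3, 129, 134, 151, 194 and 219.5 in the GDF15-treated livers, each in ascending order. The lowest value, in vehicle replicate 2, rests on 2 reads, under the floor of 3 counts taken as detection, and the lowest GDF15-treated liver was replicate 4. Cd163 rose by 1.89 ± 0.53 on the log2 scale compared with vehicle (DESeq2 adjusted p = 0.00225, edgeR 0.00309), which is 3.70-fold. It remained past both thresholds when any single vehicle-treated or GDF15-treated liver was left out, at 1.64 without vehicle replicate 2 and 2.02 without GDF15 replicate 4.

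The pair-fed livers lay between the other 2 groups in Cd163. Their log2 fold change compared with vehicle was 0.91 ± 0.53 (DESeq2 unadjusted p = 0.0867, adjusted p = 0.998), and GDF15 compared with pair-fed mice gave 0.98 ± 0.53 (adjusted p = 0.157, edgeR 0.0870). In this last comparison 5 of 6 GDF15-treated livers lay above every pair-fed liver. A fit of only these 12 samples, without the widely spread vehicle group, gave an adjusted p of 0.00455 in DESeq2. Of 12 alternative fits 11 did not pass, like the main fit. The log2 fold changes of the 12 ran from 0.65 to 1.36, with DESeq2 adjusted p up to 0.501. With single livers left out in turn, Cd163 never passed compared with pair-fed mice (DESeq2 adjusted p between 0.124 and 0.277).

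Timd4 and Marco lay in the direction of Cd163 and did not pass the test. Timd4 held 4.17, 14.8, 16.7, 24.4, 42.4 and 56.9 normalized counts in vehicle-treated livers, 11.9, 31.8, 40.7, 41.3, 47.8 and 50.1 in pair-fed livers and 23.1, 31.0, 37.4, 58.9, 84.4 and 92.1 in GDF15-treated livers. Of the GDF15-treated livers, 3 lay above every vehicle-treated liver. The log2 fold change was 1.03 ± 0.45 compared with vehicle, with a 95% confidence interval from 0.14 to 1.91 (DESeq2 adjusted p = 0.0646, edgeR 0.0912), and 0.55 ± 0.45 compared with pair-fed mice (adjusted p = 0.386). Timd4 passed the threshold against vehicle when vehicle replicate 1 or 4 or GDF15 replicate 2 or 4 was left out (log2 fold change between 1.15 and 1.40, DESeq2 adjusted p between 0.00971 and 0.0491). Without vehicle replicate 2, where 4 reads were counted, the value was 0.80 (adjusted p = 0.135).

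Marco held 4.17 to 243 normalized counts in vehicle-treated livers (median 25.6), 18.2 to 190.5 in pair-fed livers (median 47.3) and 49.6 to 245 in GDF15-treated livers (median 96.6). The lowest GDF15-treated liver lay above 4 of the vehicle-treated livers, and vehicle replicates 1 and 4 reached 111 and 243. The log2 fold change was 0.73 ± 0.79 compared with vehicle (DESeq2 adjusted p = 0.513) and 0.71 ± 0.79 compared with pair-fed mice (adjusted p = 0.544), and the 95% confidence interval of the former ran from −0.82 to 2.27. With single livers left out in turn, the log2 fold change compared with vehicle ran from 0.37 to 1.70 and never passed (DESeq2 adjusted p between 0.0677 and 0.780). The value of 1.70 was without vehicle replicate 4. The coefficient of variation among vehicle-treated livers was 133% for Marco, 78.2% for Cd163 and 73.6% for Timd4, whereas the other 7 members lay between 21.4% and 44.8%.

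Ratios of counts within a library do not depend on scaling, and were compared among members and with the general macrophage marker Adgre1, which encodes F4/80. They rest on the same counts and livers as the fits of single genes, so their tests are not independent of those fits. Adgre1 itself held 200.2 to 474 normalized counts in vehicle-treated, 188 to 378 in pair-fed and 139 to 273 in GDF15-treated livers, and fell by 0.65 ± 0.21 on the log2 scale compared with vehicle (DESeq2 adjusted p = 0.00945), while GDF15 compared with pair-fed mice gave −0.40 ± 0.21 (adjusted p = 0.146). The log2 ratio of Clec4f to Adgre1 was 1.75 ± 0.39 in vehicle-treated, 2.15 ± 0.20 in pair-fed and 2.51 ± 0.10 in GDF15-treated livers (SD, n = 6 each). All 6 GDF15-treated livers lay above every vehicle-treated liver, a difference of 0.76 or 1.70-fold, and 5 of 6 above every pair-fed liver, a difference of 0.36. The exact two-sided permutation p was 0.00216, the smallest possible, and 0.00433, with p of 0.00866 and 0.0130 after adjustment over the 12 ratio tests. Pair-fed compared with vehicle gave a difference of 0.40 (exact p = 0.0541, adjusted p = 0.108).

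The summed C1q counts kept their ratio to Adgre1 within the spread, but not their ratio to Clec4f. The log2 ratio of C1q to Adgre1 was 3.13 ± 0.19 in vehicle-treated, 3.29 ± 0.18 in pair-fed and 3.14 ± 0.15 in GDF15-treated livers, and the difference of 0.00 between GDF15 and vehicle lay within the spread (exact permutation p = 0.976, adjusted p = 0.976). Compared with pair-fed mice it was −0.15 (exact p = 0.141, adjusted p = 0.211). The log2 ratio of C1q to Clec4f was 1.39 ± 0.34 in vehicle-treated, 1.13 ± 0.14 in pair-fed and 0.63 ± 0.22 in GDF15-treated livers. All 6 GDF15-treated livers lay below all vehicle-treated and all pair-fed livers, with differences of −0.76 and −0.51 (exact permutation p = 0.00216 for both, adjusted p = 0.00866).

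The ratio of Timd4, a gene of long-settled cells, to Clec4f, a gene of all Kupffer cells, did not pass adjustment. This is a ratio of RNA levels and not of cell numbers. The log2 ratio was −5.62 ± 1.10 in vehicle-treated, −5.08 ± 0.82 in pair-fed and −4.54 ± 0.52 in GDF15-treated livers. GDF15 exceeded vehicle by 1.08 (exact permutation p = 0.0476, adjusted p = 0.108), with 2 of 6 GDF15-treated livers above every vehicle-treated liver. Without vehicle replicate 4 the difference was 1.38 (exact permutation, adjusted p = 0.0208), and without vehicle replicate 2 it was 0.75 (adjusted p = 0.195).

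**Figure D3:**
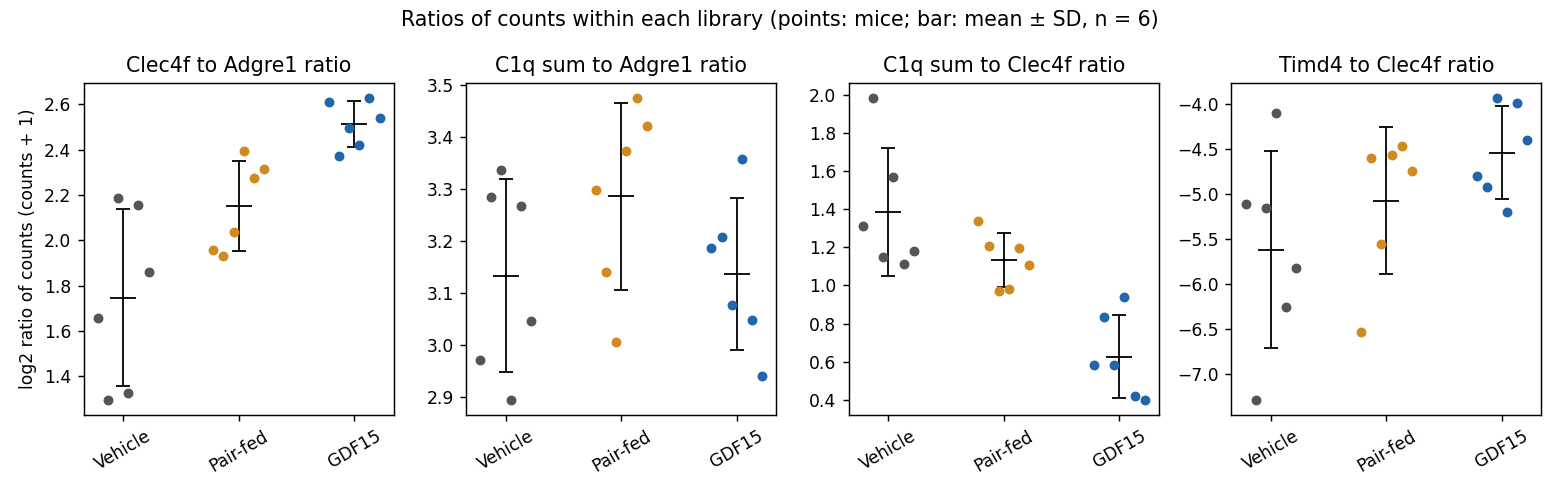
The log2 ratio of counts (each count + 1) within each library for 4 pairs, by group, with points for single livers and bars for the mean ± SD of 6. The vertical axes differ between panels and do not start at 0. Clec4f to Adgre1 is higher and C1q to Clec4f lower in the GDF15 group, and C1q to Adgre1 and Timd4 to Clec4f overlap between the groups.

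Within groups, some members varied together more closely than others. After each group mean was subtracted, Pearson's r of log2 levels over the 18 livers was 0.96 to 0.97 among the C1q chains, 0.91 between C1qa and Cd5l, 0.89 between C1qa and Folr2 and 0.86 between Clec4f and Vsig4. Clec4f also varied with Cd5l and Folr2 (r = 0.80 for both) and with the C1q chains (r = 0.71 to 0.73). Vsig4 varied less with the C1q chains (r = 0.41 to 0.46). Timd4 varied with Marco (r = 0.86) and Cd163 (r = 0.74). Between Timd4, Marco or Cd163 and the C1q chains r lay between −0.32 (Cd163 with C1qb) and 0.14 (Timd4 with C1qc). With Vsig4 it was 0.60 for Timd4, 0.51 for Cd163 and 0.36 for Marco, and with Clec4f 0.46 for Timd4, 0.22 for Cd163 and 0.19 for Marco. These values describe the samples, which share depth and tissue composition, and were not tested. Among the 10874 genes whose mean over all livers was 50 normalized counts or more, and leaving out the 10 members, those most like Clec4f were Csf1r (r = 0.84), Fabp7, Cd53, Lilra5 and Slc15a3 (r = 0.80), and those most like C1qa were Laptm5 (r = 0.95), Cd52, Csf1r, Pld4 and Cybb (r = 0.95). Folr2 and Cd5l thus varied with the C1q chains between mice, whereas with GDF15 the log2 fold change of Folr2 was 0.09 and that of Cd5l −0.43.

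Most other genes of Kupffer cells did not pass the test. Of 11 further Kupffer cell genes, 0 fell and 2 rose compared with vehicle at an adjusted p under 0.05 in DESeq2, against 17.5% and 15.8% of all genes. Their median log2 fold change was −0.02. Compared with pair-fed mice 0 fell and 2 rose, against 13.8% and 13.3%, so the rises were near the share over all genes. The 2 that rose were Fcna, which encodes ficolin-A of the lectin complement pathway, and Nr1h3, which encodes LXRα, a factor of Kupffer cell identity that hepatocytes also express. Fcna held 234 to 326 normalized counts in vehicle-treated, 292 to 420.3 in pair-fed and 248 to 631 in GDF15-treated livers, where replicate 4 was the low value, and rose by 0.98 ± 0.17 compared with vehicle (DESeq2 adjusted p = 1.95e-07) and by 0.56 ± 0.17 compared with pair-fed mice (adjusted p = 0.00512). Nr1h3 rose by 0.23 ± 0.05 compared with vehicle (DESeq2 adjusted p = 4.56e-05), with all 6 GDF15-treated livers above all vehicle-treated livers. Spic, a factor of iron-recycling macrophages, gave −0.22 ± 0.23 (adjusted p = 0.493), and Id3, which Kupffer cells need to form, −0.02 ± 0.30 (adjusted p = 0.977). GDF15 replicate 4 held 307 normalized counts of Id3, the other GDF15-treated livers 1035 to 1301 and the vehicle-treated livers 583 to 1399.

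Most genes shared by macrophages and most genes of recruited cells were lower. For all genes the share that fell was 17.5% compared with vehicle and 13.8% compared with pair-fed mice. Of 11 pan-macrophage genes, 9 fell compared with vehicle and 8 compared with pair-fed mice, with medians of −0.86 and −0.69, among them Fcgr1 (−1.10), Lyz2 (−1.01), Ctss (−0.93), Cd68 (−0.92) and Csf1r (−0.55 ± 0.18, DESeq2 adjusted p = 0.00827). Their summed level was 3727 to 6194 normalized counts in GDF15-treated, 5504 to 8707 in pair-fed and 5829 to 10481 in vehicle-treated livers. Mertk and Mpeg1, named after their values were seen, passed the test in neither GDF15 comparison. Their means were 430 ± 46.5 and 2561 ± 364 normalized counts in vehicle-treated and 474 ± 54.7 and 2022 ± 480 in GDF15-treated livers (SD, n = 6). Of 8 recruited monocyte genes, 7 fell compared with vehicle and 5 compared with pair-fed mice (medians −1.27 and −1.07), led by Ccr2 (−1.83), the receptor that brings monocytes into tissue, Cx3cr1 (−1.76) and Itgax (−1.66). Their summed level was 225 to 426 in GDF15-treated, 474 to 741 in pair-fed and 509 to 959.6 in vehicle-treated livers. Ly6c2 of this list, also named after its value was seen, passed the test in neither GDF15 comparison. Its mean was 21.1 ± 3.97 normalized counts in vehicle-treated and 19.9 ± 7.69 in GDF15-treated livers.

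Of 8 lipid-associated macrophage genes, 7 fell compared with vehicle, against 17.5% of all genes, and 6 compared with pair-fed mice, against 13.8%. The medians were −1.73 and −1.35, and the falls were led by Gpnmb (−2.60), Mmp12 (−2.30) and Spp1 (−1.99, which bile duct cells also express). The exception, named after its value was seen, was Fabp5, which rose by 1.44 ± 0.48 compared with vehicle (DESeq2 adjusted p = 0.0121), with 3135 and 3199 normalized counts in GDF15 replicates 4 and 6 and 400.4 to 913 in the other GDF15-treated livers. The summed level of the list was 2642 to 6273 in GDF15-treated, 4339 to 9057 in pair-fed and 4650 to 11883 in vehicle-treated livers. C1qa, C1qb and C1qc are expressed in these cells too, and the part of these lists in the fall of C1q was not tested.

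**Figure D4:**
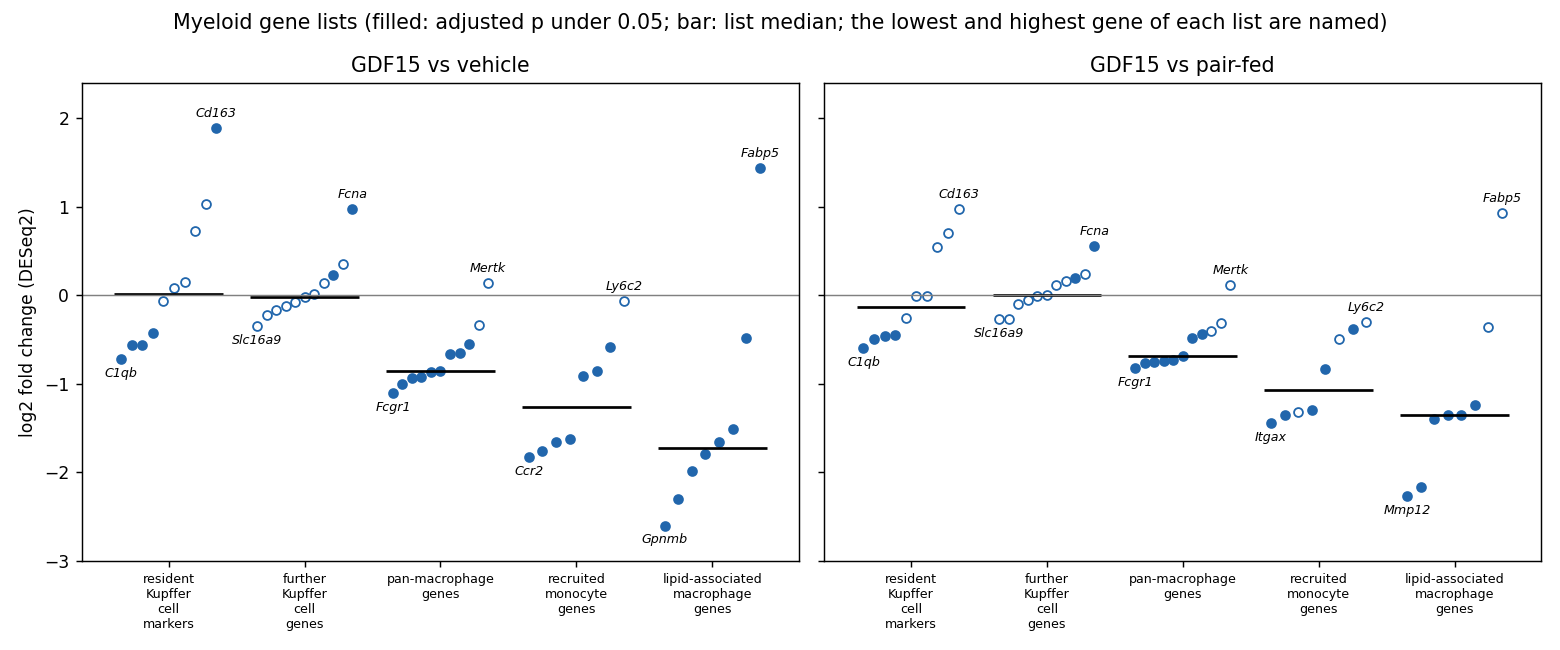
DESeq2 log2 fold changes (vertical axis) of the genes of 5 myeloid lists for GDF15 compared with vehicle (left) and with pair-fed mice (right), with filled points for an adjusted p under 0.05 and a bar at the list median. Compared with vehicle the medians are 0.01 and −0.02 for the 2 Kupffer cell lists and −0.86, −1.27 and −1.73 for the pan-macrophage, recruited monocyte and lipid-associated lists.

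Of 10 genes for signals that maintain Kupffer cells, 3 fell and 1 rose compared with vehicle, with a median of −0.23, and 1 fell and 1 rose compared with pair-fed mice. These counts are near the shares over all genes, 17.5% lower and 15.8% higher compared with vehicle and 13.8% and 13.3% compared with pair-fed mice. Csf1, the growth factor of macrophages, held 249.8 to 360.5 normalized counts in vehicle-treated, 227 to 276 in pair-fed and 161 to 261 in GDF15-treated livers. It fell by 0.44 ± 0.12 compared with vehicle (DESeq2 adjusted p = 0.00219) and gave −0.25 compared with pair-fed mice (adjusted p = 0.116), while Il34, the other ligand of its receptor, gave −0.27 ± 0.23 compared with vehicle (adjusted p = 0.379). Tgfb1 fell by 0.58 and Acvrl1, the receptor for BMP9 and BMP10, by 0.51, whereas Bmp10 rose by 0.57 (DESeq2 adjusted p = 0.000138, 0.0151 and 0.0428). Smad4, named after its value was seen, was the gene that rose compared with pair-fed mice, by 0.21 (adjusted p = 0.0181).

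Most partners of C1q in the classical pathway moved in the opposite direction from the C1q chains. Of 6 such genes, which hepatocytes express strongly, 0 fell and 4 rose compared with vehicle (median 0.38), against 17.5% and 15.8% of all genes. Compared with pair-fed mice 0 fell and 4 rose (median 0.38), against 13.8% and 13.3%. C1ra, a protease bound to C1q, held 4572 to 5842 normalized counts in vehicle-treated, 4976 to 6135 in pair-fed and 6875 to 8131 in GDF15-treated livers, without overlap of the GDF15 group with either control group. It rose by 0.53 ± 0.07 compared with vehicle (DESeq2 adjusted p = 5.11e-12). C3, the central component, rose by 0.75 and Serping1, the inhibitor of the C1 proteases, by 0.61 (DESeq2 adjusted p = 4.76e-08 and 9.76e-08), again with all 6 GDF15-treated livers above all vehicle-treated livers. C1s1, the partner protease of C1ra, gave 0.08 ± 0.05 (adjusted p = 0.175), and C2, the remaining gene of the 4, named after its value was seen, rose by 0.22 (adjusted p = 0.0434). C4b, also named after its value was seen, passed the test only compared with pair-fed mice. GDF15 replicate 4 held 246823 normalized counts of C3, and the other GDF15-treated livers 128562 to 159110. The median of the 6 hepatocyte genes compared with vehicle was 0.48.

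Genes for tasks that Kupffer cells share with other cells were also read as lists. The shares over all genes were 17.5% lower and 15.8% higher compared with vehicle, and 13.8% lower compared with pair-fed mice. Of 7 genes of haemoglobin and erythrocyte iron handling, which include plasma carriers and genes that act after uptake, 4 fell and 0 rose compared with vehicle (median −0.19), among them Slc11a1 (−0.66), Hmox1 (−0.64) and Fth1 (−0.23). Compared with pair-fed mice 1 fell, which is near the share over all genes. Of 10 genes of apoptotic cell clearance, the function of Timd4, 7 fell and 0 rose compared with vehicle (median −0.32), led by Elmo1 (−1.23), Mfge8 (−1.20) and Cd36 (−0.79), and 5 fell compared with pair-fed mice.

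Lists for other cells gave the background against which these whole-liver values stand. Over all genes, 17.5% were lower and 15.8% higher compared with vehicle, and 13.8% and 13.3% compared with pair-fed mice. In a list of 4 to 6 genes, 1 call is near these shares. Compared with vehicle, 6 of 6 stellate cell genes (median −0.57) and 5 of 5 cholangiocyte genes (median −1.03) fell. Of 6 sinusoidal endothelial genes 1 fell and 1 rose (Lyve1 and Clec4g), of 4 B cell genes 1 fell (Ms4a1), of 4 neutrophil genes 1 fell (Csf3r) and of 4 measured dendritic cell genes 1 fell (Flt3). No T and NK cell gene of 6, erythroid gene of 2 or gene of peritoneal and splenic macrophages of 2 passed the test. Compared with pair-fed mice 5 stellate cell genes, 1 cholangiocyte gene (Spp1), 3 B cell genes, Lyve1, Csf3r and Flt3 fell, 5 of 6 hepatocyte genes rose, and Gata6, the factor of peritoneal macrophages that liver endothelium also expresses, rose by 0.43 (DESeq2 adjusted p = 0.00684). In the T and NK, erythroid, and peritoneal and splenic lists the summed levels were 29.5 to 73.7, 5888 to 15127 and 185 to 308 normalized counts in GDF15-treated livers and 35.5 to 80.4, 3320 to 14182 and 162 to 236 in vehicle-treated livers. Pair-fed compared with vehicle gave 0 calls in every list.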

How the data were processed

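RNA was taken from snap-frozen liver of 18 mice, 6 per group, and directional libraries were sequenced. Per the submitters' processing notes and the methods of the study, the authors trimmed reads with Trim Galore and quantified transcripts with Salmon against mm10. The deposited values are estimated counts for each gene, given as whole numbers with no correction for depth. Tool versions are not given in the sources used here. Salmon divides reads among similar transcripts. The lowest row total was 5, and 0 columns were left unused.

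Here the counts of all 18 samples were fitted with DESeq2 1.42.0 (R 4.3.3) by its Wald test, with group as factor, size factors from the median of ratios, independent filtering, and Benjamini-Hochberg adjustment over all genes. This is the test the study names. Calls were made at an adjusted p under 0.05, with and without an absolute log2 fold change above 1. A normalized count is a deposited count divided by the size factor, and log2 fold changes are unshrunken. In edgeR 4.0.16, whose quasi-likelihood test was the second tool, 12992 genes passed the filter. Log2 ratios used counts + 1 and exact two-sided permutation tests over all 924 splits, adjusted over 12 tests. Non-overlap was counted over 13207 expressed genes. A floor of 3 counts was 0.0850 to 0.182 CPM, and covers counting error only. No label says how tissue was divided, so p-values measure the spread between these samples, taken here as separate mice. The steps were tested on simulated data, in which the planted changes were larger than those of the C1q chains and Cd5l. Recovery of changes as small as theirs was not tested.

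The members and lists were chosen with earlier results of these data known. Named genes were the 10 members, up to 3 genes per list that passed an adjusted p under 0.05 with the largest change compared with vehicle, and Adgre1, Csf1r, Cd68, Csf1, Il34, C1ra, C1s1, C3, Nr1h3, Spic and Id3 whatever their values. Likeness was Pearson's r of log2(normalized count + 1) after subtraction of group means. Coordinates are of GRCm38, which mm10 is, from GENCODE and RefSeq. The lists were further Kupffer cell, pan-macrophage, recruited monocyte, lipid-associated macrophage, niche, complement, iron handling, apoptotic cell clearance, hepatocyte, endothelial, stellate, cholangiocyte, T and NK, B, neutrophil, dendritic, erythroid, and peritoneal and splenic macrophage genes. Xcr1, Hbb-bs and Tlx1 were not in the table.

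Alternatives were TMM library sizes, total counts as size factors, a filter of 10 counts in 6 samples, fits of only the 12 samples compared, DESeq2 without independent filtering, thinning to the smallest library, a replicate block, replicates 1 to 3 or 4 to 6 alone, the 3 smaller or larger pair-fed libraries, other pseudocounts, and each sample left out in turn.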

Additional observations from a re-analysis of the deposited data

Results flagged for a closer look

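The Vsig4 level of pair-fed replicate 3, 469 normalized counts, lay far from the other 5 pair-fed livers, which held 249 to 328. The gap to its nearest neighbour was 0.644 of the range of the group, more than Dixon's 95% limit for 6 samples. It was the 1 such value among 42 groups of 6 examined, where chance gives about 2.1.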

How the results depend on the processing

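Under alternatives other than leaving out a sample, 413 values kept their direction and side of the threshold, 30 lost and 1 gained a call, 27 changed sign and 3 counts moved by over 1.5 times; the cause was not tested unless stated. Without the fold-change threshold 4 members were lower in each GDF15 comparison, and with replicates 1 to 3 only 0 were higher compared with vehicle, as Cd163 gave 2.10 (DESeq2 adjusted p = 0.125). Ratio tests on replicates 1 to 3 or 4 to 6 alone cannot pass the threshold, with exact permutation p of at least 0.1. For replicates 1 to 3 and 4 to 6, Clec4f to Adgre1 was 0.78 and 0.75 compared with vehicle and 0.52 and 0.20 compared with pair-fed mice, and C1q to Clec4f −0.82 and −0.70, and −0.51 and −0.51.

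Signs changed only in values that did not pass the test. Total counts as size factors gave −0.018 for Clec4f and −0.090 for Folr2 (GDF15 compared with vehicle) and −0.026 for Marco (pair-fed compared with vehicle), which edgeR put at −0.022. Replicates 1 to 3 gave 0.24 for Vsig4 compared with vehicle, 0.028 for Clec4f compared with pair-fed mice, −0.0057 for Marco and 0.044 for C1qc (pair-fed compared with vehicle), and −0.040, 0.0085 and −0.048 for C1q to Adgre1 in the 3 comparisons. Replicates 4 to 6 gave −0.061 for Clec4f compared with vehicle, 0.056 for Folr2 compared with pair-fed mice and, pair-fed compared with vehicle, −0.011 for Clec4f, −0.12 for Vsig4 and −0.14 for Cd5l. The 3 larger pair-fed libraries gave 0.16 for Clec4f and 0.16 for Folr2 (GDF15 compared with pair-fed) and −0.014, −0.043, −0.25 and −0.079 for Clec4f, Vsig4, Cd5l and Folr2 (pair-fed compared with vehicle). The 3 smaller gave −0.58, 0.068, 0.093 and 0.11 for Marco, C1qa, C1qb and C1qc. A pseudocount of 5 gave −0.0084 for C1q to Adgre1 compared with vehicle.

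Left-out samples gave 1 to 2 higher members compared with vehicle, 0.75 to 1.38 for Timd4 to Clec4f and −0.044 to 0.044 for C1q to Adgre1. Values of small size ranged from −0.24 to 0.15 for Vsig4 and −0.0016 to 0.23 for Folr2 (GDF15 compared with vehicle), −0.13 to 0.082 for Clec4f and −0.091 to 0.091 for Folr2 (GDF15 compared with pair-fed), and −0.58 to 0.99, −0.064 to 0.14 and −0.15 to 0.046 for Marco, Cd5l and C1qc (pair-fed compared with vehicle).

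Replicate numbers gave no clear pairing of the samples: of 6 same-numbered pairs, 2, 3 and 3 had correlated deviations over 0.1 in the 3 comparisons. In each comparison 1 sample correlated best with its own number. For pair-fed and vehicle the mean correlation was 0.16 for same-numbered pairs, with a highest value of 0.50, and −0.03 for other pairs. These correlations were not tested. With the replicate block, 0 members were lower in both GDF15 comparisons and 1 higher compared with vehicle. In the sign-flip test by pairs, Clec4f to Adgre1 (0.76 and 0.36) and C1q to Clec4f (−0.76 and −0.51) each had an exact p of 0.03125. That is the smallest p that 6 pairs allow, and it became 0.0938 after adjustment. Missing the threshold in this test therefore says nothing about these ratios. Counts under 10 for Timd4, Marco and Cd163 in vehicle replicate 2 limit what depth can show for these genes.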
